A study of Bos taurus with 48 samples.

Results

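The 4 array probes described here had different differences between pregnant and cyclic cows in the 2 tissues of the bovine endometrium. They are an expressed sequence tag without a gene symbol, CB449833, and the genes MAPK8IP1, NME7 and LBXCOR1. They were chosen on measured values, as the leading probes when the pregnancy effect in caruncular endometrium was set against that in intercaruncular endometrium, and they are 4 of the 21475 probes on the array. A filter on signal left 14695 probes, the 4 among them, with NME7 only just inside it. Because that contrast chose them, their pregnancy effects are given below as a description with no test.

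The samples came from 22 synchronised lactating Holstein-Friesian dairy cows slaughtered on day 17 of the reproductive cycle. The 12 pregnant cows had received a blastocyst on day 7, and the 10 cyclic cows had received none. Caruncular endometrium, the raised areas where placentomes later form, and the intercaruncular endometrium between them were taken from each cow, which gave 44 samples. Of the pregnant cows, 7 carried a large embryo (over 20 cm and over 75 mg) and 5 a small one (under 20 cm and under 40 mg), and 6 were labelled fertile and 6 sub-fertile. Each sample, labelled with Cy5, was hybridised against a Cy3-labelled pool of RNA from all of the samples, with no dye swap, and 4 caruncular samples were hybridised a second time, which gave 48 arrays on 12 slides. The measurement is the log2 ratio of sample to pool, so 0 is the level of the pool. Within a tissue, p-values refer to the spread between cows. Comparisons that use both tissues had no term for the cow in the main fit. Their p-values refer to the spread between the 44 samples, with the pairing by cow left out.

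MAPK8IP1 encodes JIP1, a scaffold that holds the kinases of the JNK pathway together and links cargo to kinesin motors. NME7 belongs to the nucleoside diphosphate kinase family, whose members move phosphate between nucleotides, and its protein sits at the gamma-tubulin ring complex, where microtubules start, and in motile cilia, which line part of the uterine epithelium. LBXCOR1 was named as a corepressor of the homeobox factor LBX1 and belongs to the SKI family of transcriptional corepressors, which act on SMAD and BMP signalling. During the days sampled, the elongating conceptus secretes interferon tau, and interferon-stimulated genes rise in the endometrium.

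The probes are 60 bases long. The sequences of 2 of them are shown because all 4 results rest on a single probe per gene, printed as 2 spots on each array. Capitals mark runs of 4 or more of the same base, and the strand is not stated:
CB449833: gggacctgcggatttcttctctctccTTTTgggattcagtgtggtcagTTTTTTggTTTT
NME7: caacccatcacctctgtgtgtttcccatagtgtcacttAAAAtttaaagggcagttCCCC
The CB449833 probe ends in runs of T and holds 28 T and 5 A among its 60 bases, against 18 T and 15 A in the NME7 probe, while both have 45% G and C. The files place CB449833 on chromosome 24 between 28523293 and 28524207, on a build they do not name. The probe called LBXCOR1 by its description carries the gene identifier LOC531776, to which RefSeq gives the symbol SKOR2, a related member of the same family, so the name LBXCOR1 is that of the array design. The MAPK8IP1 probe matched RefSeq under the same symbol.

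The labels were checked against marker genes. In both tissues, 5 of the 6 measured pregnancy-response genes rose in pregnant cows (ISG15, MX1, MX2, RSAD2 and OAS2) and the oxytocin receptor OXTR fell. Of 14 trophoblast markers on the array, 2 passed the filter and neither was called in either tissue (1 and 0 at an unadjusted p under 0.05 in caruncular and intercaruncular endometrium). All 8 stromal markers were higher in caruncular than in intercaruncular endometrium and 6 of 8 epithelial markers were lower. In whole tissue, fewer cells of a type and less RNA per cell cannot be told apart. Between 68.8% and 84.0% of spots were well above background on an array, and 2 arrays had over 5% of their spots marked as outliers by the extraction software.

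The layout of the slides bears on every comparison. Each slide held 4 arrays. Among intercaruncular samples, slides 1 and 12 held pregnant cows only, slides 3 and 4 cyclic cows only, and slide 2 held 3 pregnant cows and 1 cyclic cow. Caruncular samples had the same arrangement, with slide 7 holding 3 pregnant cows and 1 cyclic cow. The intercaruncular slides were scanned on the first day and the caruncular slides on the second. Only slides 10 and 11, scanned on the third day, held both tissues, from 1 pregnant and 1 cyclic cow, together with the 4 repeat arrays. State and slide therefore largely coincided, and so did tissue and scan day, and values within slide 2, within slide 7 and within the third scan day are given beside the results.

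CB449833 was higher in pregnant than in cyclic cows in caruncular endometrium and lower on average in intercaruncular endometrium. In caruncular endometrium the log2 ratio ran from -0.12 to 0.35 (median 0.09) in the 10 cyclic cows and from 0.43 to 1.11 (median 0.67) in the 12 pregnant cows. Every pregnant cow was above every cyclic cow, as happened without overlap in either direction for 1.89% of all probes tested in this tissue. The means were 0.13 ± 0.13 (SD, n = 10) and 0.74 ± 0.21 (SD, n = 12), a difference of 0.61 (SE 0.08), or 1.52-fold. In intercaruncular endometrium the ratio ran from -0.12 to 1.11 (median 0.51) in cyclic cows and from -0.37 to 0.66 (median 0.12) in pregnant cows. Here the groups overlapped, with 3 pregnant cows below all cyclic cows, 10 of 12 below the cyclic mean, and a difference of -0.39 (SE 0.15). For scale, 5.77% of tested probes rose and 4.21% fell with pregnancy in caruncular endometrium at 1.5-fold and an adjusted p under 0.05, and 3.99% rose and 3.25% fell in intercaruncular endometrium.

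Values within a slide were in the same direction in caruncular endometrium and not in intercaruncular endometrium. On slide 7 the 3 pregnant cows averaged 0.77 and the cyclic cow 0.35, and on the third scan day the caruncular ratio was 0.43 in the pregnant cow and -0.12 in the cyclic cow. On slide 2 the 3 pregnant cows averaged 0.43 and the cyclic cow 0.03, and on the third scan day the intercaruncular ratio was 0.66 in the pregnant cow and -0.12 in the cyclic cow. The negative intercaruncular difference thus lay between slides, from -0.06 on slide 12 and -0.00 on slide 1, both of pregnant cows, to 0.43 on slide 3 and 0.92 on slide 4, both of cyclic cows. With slide as a fixed block, which leaves slide 7 or slide 2 as the source of each tissue's value, the caruncular effect was 0.42 (SE 0.19) and the intercaruncular effect was 0.40 (SE 0.20). The difference between the tissues came from a joint fit, which also draws on slides 10 and 11 with both tissues of the same cow, and was -0.08 (SE 0.21).

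**Figure D1:**
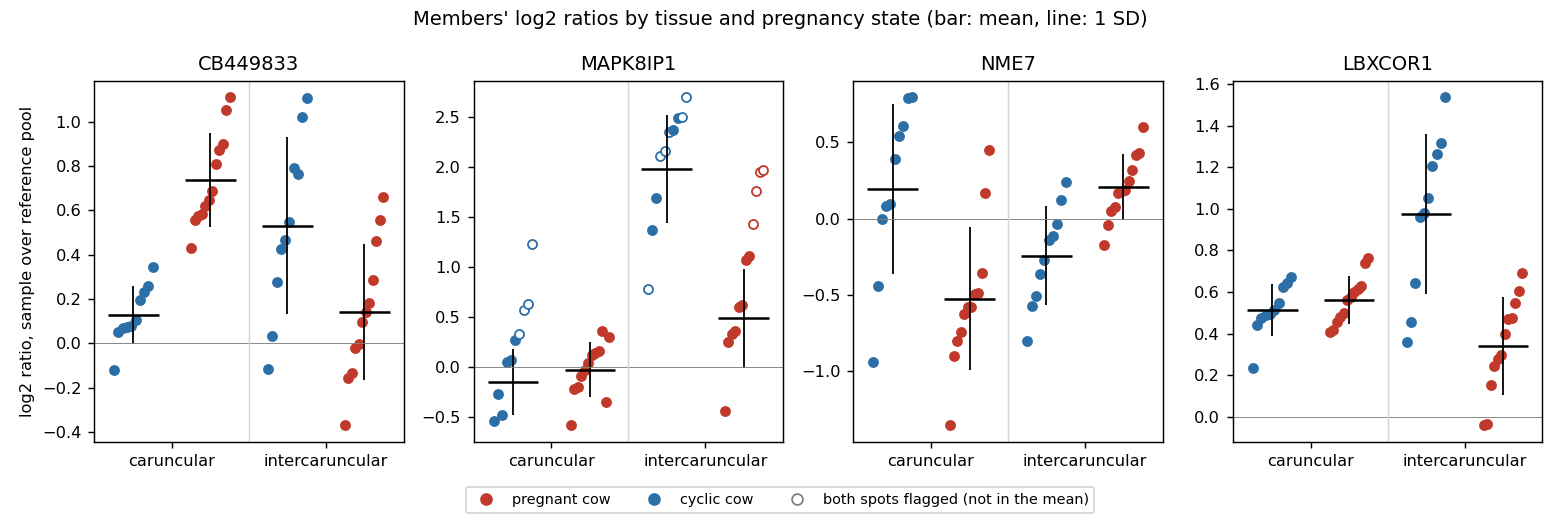
Log2 ratio of sample to pool for the 4 probes, with 1 point per cow, bars at group means and lines for 1 SD, in cyclic and pregnant cows of each tissue. Hollow points are samples with both spots marked as outliers, which are not in the means. CB449833 separates the states in caruncular endometrium, with every pregnant cow at 0.43 or above and every cyclic cow at 0.35 or below, while LBXCOR1 and MAPK8IP1 differ between the states mainly in intercaruncular endometrium.

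For LBXCOR1 the states lay apart in intercaruncular endometrium and close together in caruncular endometrium. Its ratio there ran from 0.36 to 1.54 (median 1.02) in cyclic cows and from -0.04 to 0.69 (median 0.35) in pregnant cows. All 12 pregnant cows were below the cyclic mean of 0.98 ± 0.38 (SD, n = 10) and 6 were below every cyclic cow, and the difference was -0.64 (SE 0.13). In caruncular endometrium the means were 0.51 ± 0.13 (SD, n = 10) and 0.56 ± 0.12 (SD, n = 12), a difference of 0.05 (SE 0.06, 95% confidence interval -0.07 to 0.17). The spread between caruncular samples was thus small in both states, and the intercaruncular range was wider. The intercaruncular mean was 0.09 on slide 12, 0.35 on slide 1, 0.84 on slide 3 and 1.33 on slide 4, and within slide 3 the values ran from 0.36 to 1.05. Within slide 2 the pregnant cows averaged 0.59 and the cyclic cow 0.64, and on the third scan day the values were 0.55 and 0.46. With slide as a fixed block the intercaruncular effect was -0.05 (SE 0.22).

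MAPK8IP1 had the largest differences and the most incomplete data. The software marked 40 of its 96 spots as outliers, and both spots on 16 of 48 arrays, which left intercaruncular values for 4 cyclic and 8 pregnant cows. All 40 were marked in the sample channel and 9 also in the reference channel, and the median signal was 854 units at marked spots and 122 units at the others, so the marked spots were the brighter ones at the median, though not in every sample. In intercaruncular endometrium the 4 cyclic cows had ratios of 1.37, 1.69, 2.37 and 2.48, and the 8 pregnant cows ran from -0.44 to 1.11 (median 0.48). The groups did not overlap, and the difference was -1.49 (SE 0.28). Of all probes tested in this tissue 1.14% did not overlap, but 97.8% of them had values for all 22 cows, so that share cannot be set against groups of 4 and 8. In caruncular endometrium the 6 cyclic cows with a value averaged -0.15 ± 0.33 (SD, n = 6) and the 12 pregnant cows -0.03 ± 0.27 (SD, n = 12), a difference of 0.12 (SE 0.14).

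With the marked spots kept, all 44 samples had a value and the groups met. Intercaruncular ratios then ran from 0.78 to 2.69 in the 10 cyclic cows and from -0.44 to 1.97 in the 12 pregnant cows. All 12 pregnant cows were still below the cyclic mean of 2.06, and 6 were below every cyclic cow. The caruncular means became 0.26 for cyclic and 0.02 for pregnant cows. By slide, the intercaruncular mean with marked spots kept was 0.38 on slide 12, 1.08 on slide 1, 2.01 on slide 3 and 2.52 on slide 4. Within slide 2 it was 1.89 in pregnant cows and 1.69 in the cyclic cow, and on the third scan day it was -0.44 in the pregnant cow and 0.78 in the cyclic cow. In caruncular endometrium, with marked spots kept, slide 7 had 0.11 in pregnant cows and -0.54 in the cyclic cow, and the third scan day -0.58 and 1.23. In both tissues the state difference on slide 2 or slide 7 thus had the opposite sign to that between these cows of the third scan day. Those cows were on slide 10 (pregnant) and slide 11 (cyclic). With its repeat arrays, slide 10 also held both states in caruncular endometrium, at -0.20 on 2 arrays of pregnant cows and -0.48 on 1 array of a cyclic cow. That difference had the same sign as on slide 7. With marked spots left out, no slide held intercaruncular values of both states, so no value with slide as a fixed block could be fitted.

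NME7 moved in opposite directions in the tissues. In caruncular endometrium its ratio ran from -0.94 to 0.79 (median 0.24) in cyclic cows and from -1.36 to 0.45 (median -0.58) in pregnant cows, with 11 of 12 pregnant cows below the cyclic mean and a difference of -0.72 (SE 0.21). In intercaruncular endometrium it ran from -0.80 to 0.24 (median -0.21) in cyclic cows and from -0.17 to 0.60 (median 0.18) in pregnant cows, all 12 of which were above the cyclic mean of -0.24, 5 of them above every cyclic cow. The intercaruncular difference was 0.45 (SE 0.11). Both groups overlapped in both tissues. On slide 7 the 3 pregnant cows averaged -0.62 and the cyclic cow -0.44. On the third scan day the caruncular values were -0.36 in the pregnant cow and -0.94 in the cyclic cow, the opposite order. Neither spot of that cyclic sample was well above background. The repeat arrays of that day had the order of the main difference, at -0.55 for a pregnant cow and 0.72, 0.15 and 0.06 for cyclic cows. On slide 2 the averages were 0.07 and -0.11, and on the third scan day the intercaruncular values were 0.25 in the pregnant cow and -0.14 in the cyclic cow. The intercaruncular direction was thus the same in both, although with slide as a fixed block the effects shrank to -0.18 (SE 0.49) in caruncular and 0.18 (SE 0.31) in intercaruncular endometrium. The probe was dim, as it was well above background on both spots of 38 arrays, on 1 spot of 6 and on neither spot of 4, and 2 of these 4 were caruncular samples of pregnant cows. Among caruncular arrays, both spots were well above background on 7 of 13 from pregnant cows and on 12 of 13 from cyclic cows. Many of the low caruncular values of pregnant cows thus lay near background.

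The tissues were also compared within each cow. For CB449833 the caruncular ratio minus the intercaruncular ratio ran from -1.03 to 0.31 (median -0.40) in cyclic cows, 9 of 10 below 0, and from -0.23 to 1.07 (median 0.67) in pregnant cows, 11 of 12 above 0. The exceptions were a cyclic cow at 0.31 and a pregnant cow at -0.23. For LBXCOR1 the difference within cow averaged -0.46 ± 0.39 (SD, n = 10) in cyclic cows, 9 of 10 below 0, and 0.22 ± 0.23 (SD, n = 12) in pregnant cows, 10 of 12 above 0. These 2 probes therefore ordered the tissues oppositely in the 2 states.

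For NME7 the order was the reverse, with a mean of 0.44 ± 0.61 (SD, n = 10) in cyclic cows, 8 of 10 above 0, and -0.73 ± 0.47 (SD, n = 12) in pregnant cows, 11 of 12 below 0. For MAPK8IP1 the caruncular ratio was lower than the intercaruncular ratio in every cow with both values. The mean was -2.28 ± 0.34 (SD, n = 4) in cyclic and -0.56 ± 0.47 (SD, n = 8) in pregnant cows, and the states did not overlap in these 4 and 8 cows. The share over all probes was 0.0681%, mostly with all 22 cows and on the measure that chose the probes, so nothing is read from it. With marked spots kept the means were -1.80 and -0.91, the states overlapped, and 9 of 10 cyclic and 12 of 12 pregnant cows were below 0. The mean of MAPK8IP1 thus had the same sign in both states and differed in size, whereas the means of the other 3 probes changed sign.

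**Figure D2:**
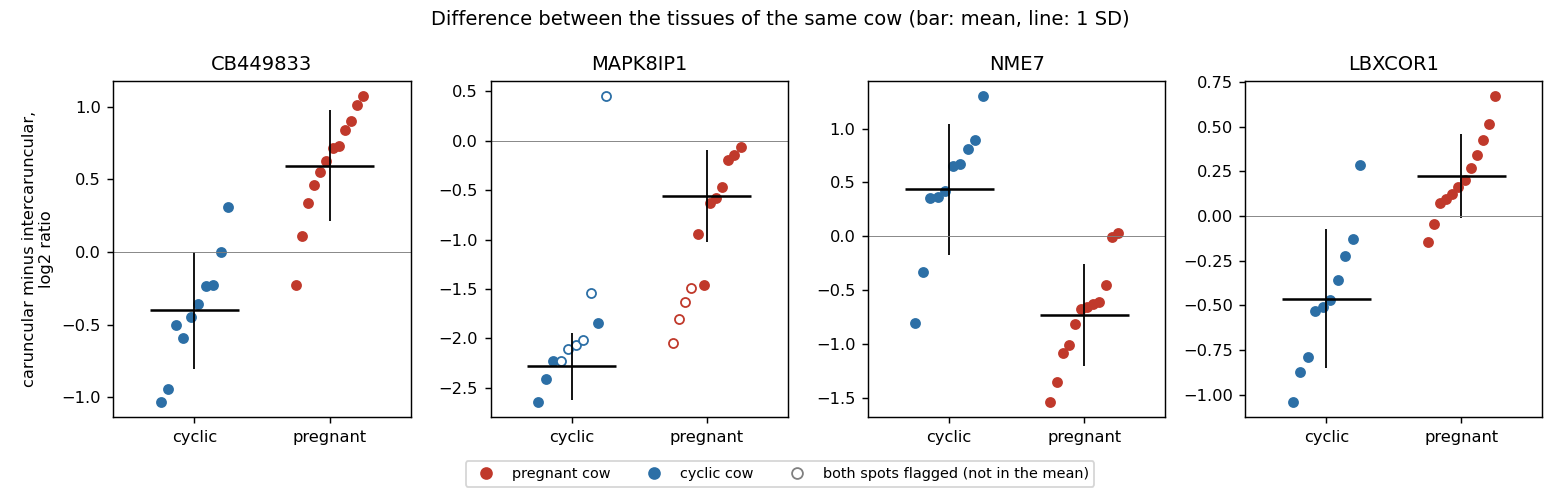
Log2 ratio in caruncular minus intercaruncular endometrium of the same cow for the 4 probes, with 1 point per cow, bars at means, lines for 1 SD and a thin line at 0, and with hollow points where a sample had both spots marked as outliers. For CB449833 the difference is below 0 in 9 of 10 cyclic cows and above 0 in 11 of 12 pregnant cows, and for NME7 the order is the reverse.

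These differences rank the probes as follows. The pregnancy effect in caruncular minus that in intercaruncular endometrium was 1.00 (SE 0.17) for CB449833, 1.61 (SE 0.30) for MAPK8IP1, -1.17 (SE 0.24) for NME7 and 0.69 (SE 0.14) for LBXCOR1. By limma with Benjamini-Hochberg adjustment, 3 probes or 0.0204% of those tested were past an adjusted p of 0.05, namely CB449833 (0.00654), the interferon-stimulated gene MX2 (0.0157) and MAPK8IP1 (0.0424). The next probes were NME7, LBXCOR1 and OR51G2 (all 0.0556), followed by CB450439 and POGZ (both 0.179). The threshold therefore ran between the chosen probes. MX2 rose in both tissues, by 4.90 in caruncular and 2.90 in intercaruncular endometrium, so the sign of its effect did not turn. With the cow as a fixed block 150 probes were called and with the cow as a random block 425, all 4 chosen probes among them each time. Without slide 4 no probe was called, without slide 12 none, with slide as a block none, and without the third scan day 87. At an unadjusted p under 0.05, 1083 probes passed. Since these values chose the probes, the counts are given to show where the selection lies.

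The reference channel held the same RNA pool on every array, so its level over the array's median signal shows how a probe behaved apart from the samples. Over the 48 arrays the SD of this log2 level had a median of 0.16 over all probes tested. It was 0.23 for NME7, 0.30 for CB449833, 0.47 for LBXCOR1 and 1.39 for MAPK8IP1, and 78.3%, 87.9%, 95.5% and 99.9% of probes, in that order, had a lower one. From the lowest to the highest array the reference level of MAPK8IP1 spanned 49.6-fold, that of LBXCOR1 5.62-fold, that of CB449833 4.88-fold and that of NME7 1.95-fold. The same pool thus gave very unequal readings at the MAPK8IP1 probe. Among the other probes of ranks 1 to 8, the share of probes with a lower SD was 49.7% for MX2 and 96.6% for OR51G2. It was 98.8% for CB450439 and 96.7% for POGZ.

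The reference level also moved with the groups. For MAPK8IP1 in intercaruncular endometrium it averaged -1.84 ± 0.88 (SD, n = 10) on arrays of cyclic cows and -4.23 ± 1.61 (SD, n = 12) on arrays of pregnant cows, and the sample channel averaged 0.21 ± 1.44 and -3.30 ± 2.29 on the same arrays. For LBXCOR1 the reference averaged -1.19 in cyclic and -1.96 in pregnant intercaruncular arrays, and the sample -0.22 and -1.63. Both channels were therefore lower on the arrays of pregnant cows. For CB449833 in caruncular endometrium the reference was nearly level, at -4.16 and -4.13, while the sample was -4.02 in cyclic and -3.39 in pregnant cows. For NME7 in caruncular endometrium the reference was -4.82 and -4.73 and the sample -4.62 and -5.25. The caruncular differences of CB449833 and NME7 therefore lay mostly in the sample channel. In intercaruncular endometrium the NME7 reference was -4.73 in cyclic and -4.98 in pregnant cows and the sample -4.97 and -4.78, so the lower reference made up more of the difference than the higher sample. For CB449833 there the reference was -4.20 and -4.41 and the sample -3.64 and -4.26, both lower in pregnant cows.

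Across the 44 samples, with marked spots kept, the log2 ratio and the reference level had a Pearson correlation of 0.80 for MAPK8IP1, 0.79 for LBXCOR1, 0.44 for CB449833 and -0.52 for NME7, against a median of -0.09 over all probes tested. Within intercaruncular samples it was 0.92 for MAPK8IP1 and 0.90 for LBXCOR1. These are descriptions, since the ratio contains the reference and samples of a slide share their hybridisation. The reference signal of LBXCOR1 was between 248 and 448 units on slide 12 and between 1056 and 1523 units on slide 4. That of MAPK8IP1 was between 24.3 and 43.1 units on slide 12 and between 863 and 1325 units on slide 4. What part the slides and the reference level had in the pregnancy differences was not tested beyond the blocked values above.

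**Figure D3:**
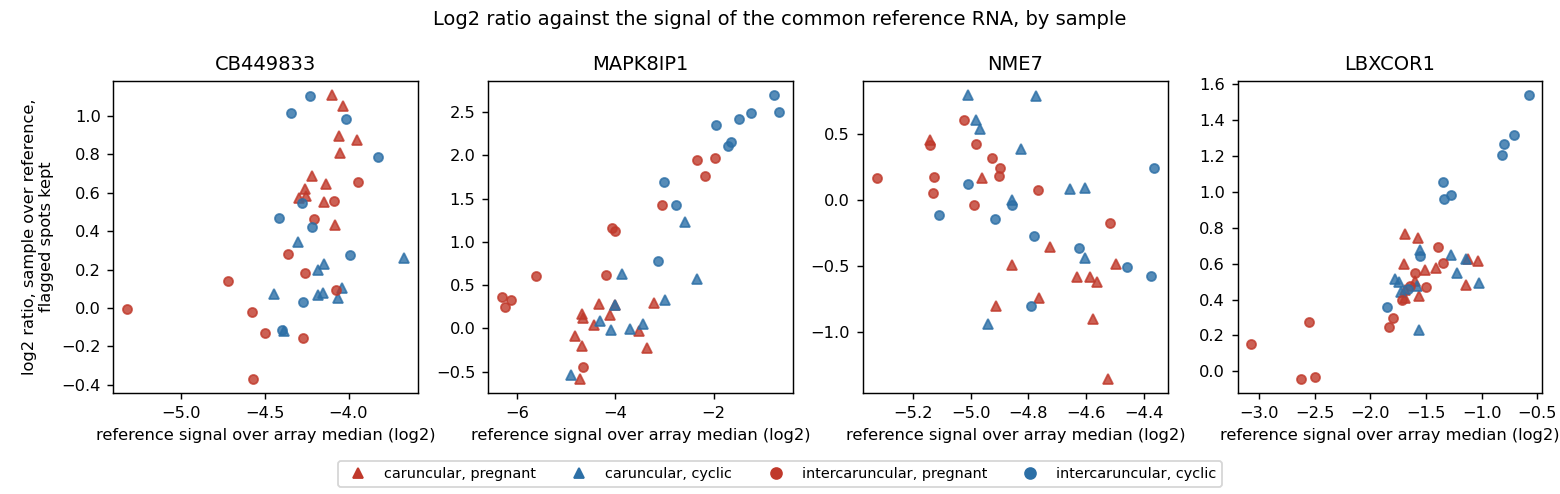
Log2 ratio of sample to pool against the log2 level of the common reference over the array median, with 1 point per sample, for the 4 probes. The reference is 1 RNA pool used on all arrays, and the spread along the horizontal axis is widest for MAPK8IP1 (SD 1.39) and LBXCOR1 (SD 0.47).

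**Figure D4:**
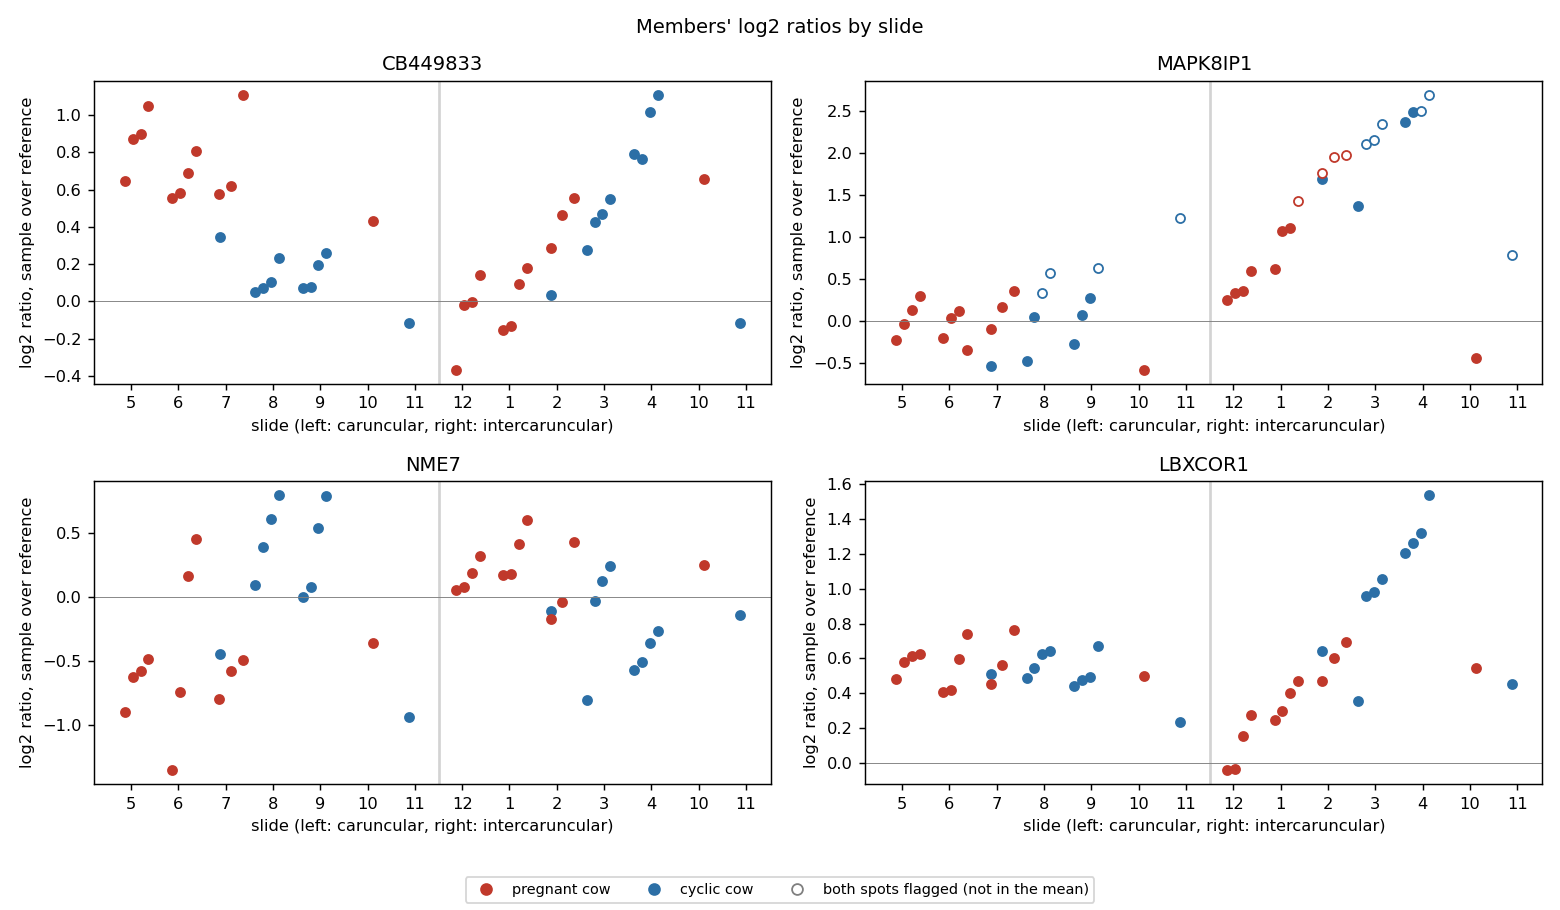
Log2 ratio by slide for the 4 probes, with 1 point per sample at the slide of its first array, the state shown by colour, and hollow points where both spots were marked as outliers. In intercaruncular endometrium the slide means of LBXCOR1 run from 0.09 on slide 12 (pregnant cows) to 1.33 on slide 4 (cyclic cows), while on slide 2, which held both states, the means are 0.59 and 0.64.

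Repeated hybridisation of 4 caruncular samples gave a direct view of technical error. Repeat and first array differed by 0.06 to 0.23 for NME7, by 0.01 to 0.24 for CB449833 and by 0.02 to 0.30 for LBXCOR1. For MAPK8IP1, with marked spots kept, the repeats differed by 0.05 to 0.93. The 2 spots of a probe on an array had a median difference of 0.04 for LBXCOR1, 0.10 for NME7, 0.12 for CB449833 and 0.14 for MAPK8IP1. The largest differences between spots were 0.20, 0.63, 0.44 and 1.25, in that order.

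Signals set how firmly each value can be read. CB449833 and LBXCOR1 were well above background on both spots of all 48 arrays, MAPK8IP1 on both spots of 45 and on 1 spot of 3. The sample signal ran from 54.0 to 445 units for CB449833, from 39.3 to 159 units for NME7, from 275 to 4423 units for LBXCOR1 and from 30.9 to 8532 units for MAPK8IP1. NME7 was therefore the dimmest and MAPK8IP1 the widest in range. No spot of the 4 probes was saturated. Apart from MAPK8IP1, 1 spot of CB449833 was marked as an outlier and none of NME7 or LBXCOR1.

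The difference between the tissues over all cows was not used to choose the probes and could be tested. Of all probes tested, 27% were higher and 30.5% lower in caruncular than in intercaruncular endometrium. MAPK8IP1 was lower, by -1.05 (SE 0.20, adjusted p = 3.75e-05 by limma), from 18 caruncular and 12 intercaruncular values. It was -1.13 (SE 0.24) with the cow as a fixed block, which rests on the 12 cows with both values. The adjusted p reached 0.999 over the alternatives, with scan day as a fixed block, where the difference was -0.14 (SE 0.68) and rested on the 1 cow whose tissues were scanned on the same day with a value in both. For 20 of the cows, tissue and scan day cannot be told apart. The other 3 probes did not pass by limma, with differences of 0.14 (95% confidence interval -0.08 to 0.37, adjusted p = 0.281) for CB449833, -0.20 (-0.50 to 0.10, adjusted p = 0.249) for NME7 and -0.09 (-0.27 to 0.09, adjusted p = 0.391) for LBXCOR1. For these 3 the value averages over tissue differences within cow whose means had opposite signs in cyclic and pregnant cows.

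Embryo size was compared among the 12 pregnant cows. In caruncular endometrium limma called no probe (0%), a form of the methods' test with unequal variances also called none, and 1017 probes had an unadjusted p under 0.05. The differences, large minus small, were 0.20 (SE 0.12) for CB449833, 0.23 (SE 0.15) for MAPK8IP1, -0.37 (SE 0.24) for NME7 and 0.02 (SE 0.09) for LBXCOR1, with adjusted p-values from 0.777 to 0.978. In intercaruncular endometrium 3.68% of probes were called, or 541, and none of the 4 was among them. That count ran from 34 to 1881 when each cow was left out in turn and was 16 without slide 12. CB449833 ran from -0.02 to 0.66 (median 0.18) in the 7 cows with a large embryo and from -0.37 to 0.28 (median -0.13) in the 5 with a small one, and the groups overlapped. Its difference was 0.34 (95% confidence interval 0.01 to 0.66) with an adjusted p of 0.213. The other differences were -0.27 (-1.01 to 0.47) for MAPK8IP1, -0.01 (-0.30 to 0.27) for NME7 and -0.02 (-0.33 to 0.28) for LBXCOR1, with adjusted p-values from 0.683 to 0.967 by limma. That of MAPK8IP1 rested on 5 cows with a large embryo and 3 with a small one.

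Fertile and sub-fertile cows, all pregnant, were compared in the same way. In caruncular endometrium limma called 0% of probes, that form of the methods' test also called none, and 2025 probes had an unadjusted p under 0.05. Adjusted p-values of the 4 probes lay between 0.461 and 0.973, and the difference furthest from 0 was that of NME7, 0.39 (95% confidence interval -0.12 to 0.90). In intercaruncular endometrium 0.0476% of probes were called, or 7, and again none of the 4. Without slide 12 there was 1 call, and without the third scan day there were 43. LBXCOR1 ran from -0.04 to 0.30 (median 0.20) in fertile and from 0.40 to 0.69 (median 0.51) in sub-fertile cows. These groups did not overlap, as for 1.42% of all probes tested, and the difference of -0.38 (SE 0.09) had an adjusted p of 0.155. CB449833 ran from -0.37 to 0.14 (median -0.08) in fertile and from 0.10 to 0.66 (median 0.37) in sub-fertile cows, a difference of -0.46 (SE 0.12) with an adjusted p of 0.162. Both were lower in fertile cows without passing the threshold, and NME7 differed by -0.00 (SE 0.13) and MAPK8IP1 by 0.23 (SE 0.37). The MAPK8IP1 value rested on 6 fertile and 2 sub-fertile cows. With marked spots kept, its means were 0.55 in 6 fertile and 1.30 in 6 sub-fertile cows, the opposite direction.

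The 4 pregnant cows of slide 12 were all fertile, so slide and fertility partly coincided. Slide 1 held 2 fertile and 2 sub-fertile cows. On it CB449833 averaged -0.14 in fertile and 0.14 in sub-fertile cows, and LBXCOR1 averaged 0.27 and 0.44. These within-slide differences had the same sign as the differences over all 12 cows and were smaller. Caruncular samples of the same 4 cows shared slide 6, where LBXCOR1 averaged 0.41 in fertile and 0.67 in sub-fertile cows. On that slide NME7 averaged 0.31 in fertile and -1.05 in sub-fertile cows, and with slide as a fixed block its difference was 1.36 (SE 0.22) with an adjusted p of 0.335 by limma. That difference rested on slide 6 alone, with 2 cows of each label. Of its 2 sub-fertile samples, 1 (-1.36) had no spot well above background and the other (-0.74) had only 1.

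Within cows, the tissue difference of CB449833 ran from 0.72 to 1.07 in the 6 fertile cows and from -0.23 to 0.63 in the 6 sub-fertile cows, with means of 0.88 ± 0.15 (SD, n = 6) and 0.31 ± 0.32 (SD, n = 6). The fertile cows thus all lay above the sub-fertile cows on this measure, as happened without overlap in either direction for 1.47% of all probes. The difference was not tested. For LBXCOR1 the means were 0.37 ± 0.21 (SD, n = 6) and 0.07 ± 0.15 (SD, n = 6), with overlap. For NME7 they were -0.53 ± 0.45 (SD, n = 6) and -0.93 ± 0.44 (SD, n = 6), also with overlap.

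**Figure D5:**
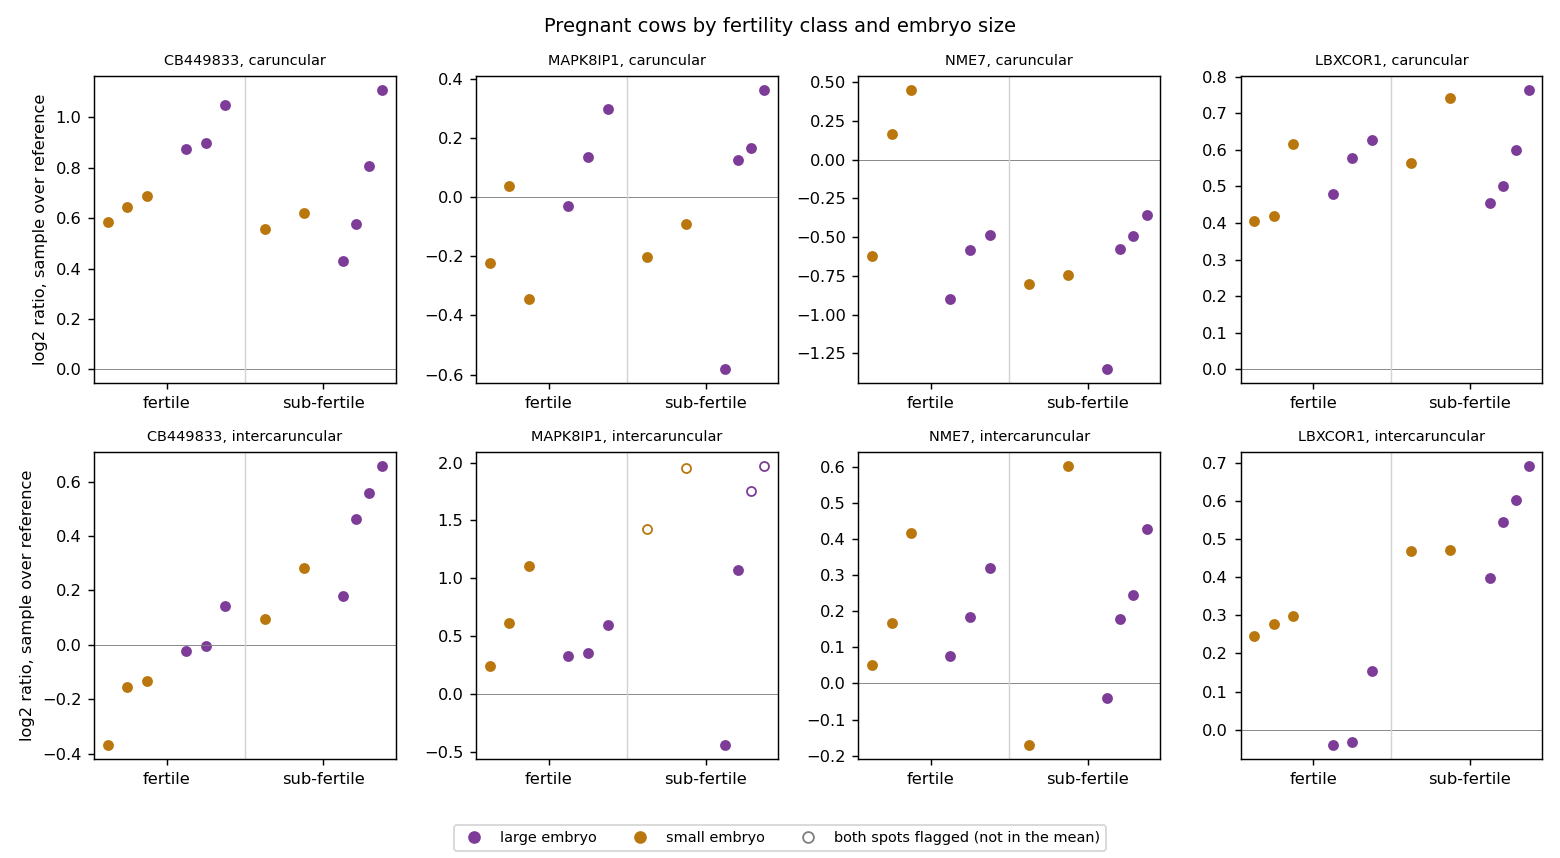
Log2 ratio of sample to pool in the 12 pregnant cows for the 4 probes, by tissue (rows), fertility label and embryo size (colour), with 1 point per cow and hollow points where both spots were marked as outliers. In intercaruncular endometrium LBXCOR1 is at 0.30 or below in fertile cows and at 0.40 or above in sub-fertile cows, a difference with an adjusted p of 0.155.

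The 4 probes did not form a single pattern. Over 44 samples, outlier-marked spots kept for MAPK8IP1, the log2 ratio of LBXCOR1 had a Pearson correlation of 0.64 with CB449833 and 0.58 with MAPK8IP1, and NME7 had -0.52 with CB449833 and -0.32 with LBXCOR1. The correlation of MAPK8IP1 was 0.15 with CB449833 and -0.02 with NME7. These samples share cows and slides, so the values are descriptions.

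The named probes most like each member were found by the correlation of log2 ratios over the samples with both values. LBXCOR1 was most like POGZ (0.96), C1orf21 (0.90, 43 samples) and CBX8 (0.89), and POGZ was itself eighth in the ranking by tissue difference of the pregnancy effect. The reference level of these probes varied more than that of 96.7%, 95.6% and 92.1% of all probes tested, in that order. What part this had in the correlations was not tested. Of the probes reported here, MAPK8IP1 was most like LOC513690 (0.92) and C6orf35 (0.91) over 30 samples, and the reference level of both of these probes varied more than that of 99.5% of all probes. CB449833 was most like ANKRD12 (0.75), MGC33846 (0.72) and LOC509468 (0.70). NME7 was most like CCNB1, the mitotic cyclin B1, and like ATP8B1 and KIAA1542 (each 0.65).

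Other genes of the members' pathways were taken from lists of the JNK module, the nucleoside diphosphate kinases, the gamma-tubulin ring complex, the motile cilium and the SKI family with BMP signalling. Of the 69 genes tested, 1 rose (1.45%) and 3 fell (4.35%) with pregnancy in caruncular endometrium, beside 5.77% and 4.21% of all probes. The share that fell was thus near that of all probes. ID1, a target of BMP signalling, rose by 0.79 (SE 0.23, adjusted p = 0.0124 by limma). The 3 that fell were motile cilium genes, namely the microtubule protein tektin TEKT2 (-0.59, SE 0.14, adjusted p = 0.00455), the dynein chain DNAI1 (-0.90, SE 0.29, adjusted p = 0.0254) and SPA17 (-0.61, SE 0.20, adjusted p = 0.0278). The 15 motile cilium genes had a median difference of -0.61 in caruncular and 0.03 in intercaruncular endometrium, beside medians of -0.04 and -0.01 over all probes. By limma none of the 69 was called in intercaruncular endometrium or for the difference of the effect between the tissues. The form of the methods' test with unequal variances also called none in intercaruncular endometrium. By limma, 10 had an unadjusted p under 0.05 in intercaruncular endometrium and 6 for the difference. Of all 14695 probes tested, 5012 and 1083 had such a p, a larger share for the first and a slightly smaller one for the second.

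Cell type markers also moved with pregnancy. In caruncular endometrium the epithelial keratins KRT18 (-0.86) and KRT19 (-0.77) fell, while the epithelial adhesion genes CDH1 (1.02) and CLDN4 (0.95) rose, out of 8 epithelial markers. In intercaruncular endometrium 2 of these 8 rose and 0 fell. Of 7 smooth muscle markers 5 fell in each tissue, as did 3 of 8 endothelial markers. Among 8 stromal markers 1 rose and 1 fell in caruncular endometrium and 3 fell in intercaruncular endometrium, and of 9 leukocyte markers 1 rose in caruncular endometrium. Their part in the differences of the 4 probes and of the cilium genes was not tested.

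The JNK module around MAPK8IP1 had no call with pregnancy among its 23 genes in either tissue. By limma, 4 of them in caruncular and 3 in intercaruncular endometrium had an unadjusted p under 0.05. Of all 14695 probes tested, 5751 and 5012 had such a p, larger shares than in this list. The medians of the list were -0.14 in caruncular and -0.09 in intercaruncular endometrium. The 6 nucleoside diphosphate kinases related to NME7 also had no call (2 and 1 at an unadjusted p under 0.05), with medians of -0.30 and 0.03. Among them NME5, which occurs in motile cilia, differed by -0.53 (SE 0.22) in caruncular and 0.20 (SE 0.26) in intercaruncular endometrium. NME9 differed by -0.51 (SE 0.38) and 0.22 (SE 0.29). These values were on the same sides of 0 as those of NME7, but the intercaruncular ones were smaller than their SE. The rest of the 6 had the same sign in both tissues. The 8 gamma-tubulin ring complex genes had medians of -0.11 and -0.03, and the 17 genes of the SKI family and BMP signalling had medians of -0.11 and -0.10.

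Between the tissues, 18 of the 69 genes were higher and 29 lower in caruncular endometrium (26.1% and 42.0%), beside 27% and 30.5% of all probes. All 15 motile cilium genes were lower, with a median of -1.18, among them SPAG6 (-1.96), DNAI1 (-1.76), TEKT2 (-1.34) and SPA17 (-1.18). Of the 6 nucleoside diphosphate kinases 4 were lower, with NME9 at -1.99 and NME5 at -1.39. NME7, a relative of these 2, differed by -0.20 and did not pass. That value averages over opposite means within cow, 0.44 in cyclic and -0.73 in pregnant cows. The SKI family and BMP list had 9 of 17 genes higher, including the receptor BMPR1A (0.73), SMAD9 (0.72), BMP2 (0.72) and ID1 (0.69). In the JNK module 7 of 23 were higher, with the kinase MAPK8 at 0.46 and its target ATF2 at 0.38, and 6 were lower, with MAP2K4 at -0.39 and MAP3K11 at -0.42. The gamma-tubulin list had 2 genes higher (TUBGCP3 at 0.28 and TUBGCP5 at 0.27) and 4 lower, with AKAP9 at -0.52 and NEDD1 at -0.45. With scan day as a fixed block, 2 of the 14695 probes were called between the tissues.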

How the data were processed

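RNA from caruncular and intercaruncular endometrium of 22 cows (44 samples, 48 arrays) was measured on bovine Agilent 60-mer arrays with 2 colours. The deposited scanner files hold, per the file headers, intensity values and the log10 ratio of Cy5 (sample) over Cy3 (pool) of each spot, background-subtracted and dye-normalised (LOWESS) by the authors with Feature Extraction (version 9.5.3.1 in the file headers). A deposited value matrix with log2 ratios held 17876 probes, of which 17855 matched. Its columns correlated with the scanner values at 0.977 to 0.999 and had medians of -0.03 to 0.06, and it was used as an alternative.

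From the scanner files, spots marked as outliers were left out, spots of a probe averaged, ratios turned to log2, each array centred on its median and the arrays of a repeated sample averaged. Repeats correlated at 0.960 or more and other pairs of arrays at 0.821 or less. A probe was tested if at least 22 of 44 samples had both a signal of at least 80 and a spot well above background in the sample channel. Tests used limma 3.58.1 in R 4.3.3 (with version 1.17.8 of data.table), Benjamini-Hochberg adjusted over the 14695 probes (or those that could be fitted). A call needed an adjusted p under 0.05, with 1.5-fold for pregnant against cyclic. The scripts were tested on simulated data. A symbol was present in the description of 18890 probes. Counted separately, 13808 probes matched RefSeq by gene number, accession or gene name.

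Both tissues came from the same cow, and the deviations of the 22 pairs correlated at 0.11 to 0.87. The fits reported had no term for the cow, and fits with the cow as a block are alternatives. The study's methods do not state a form of their test, and the form with unequal variances is an alternative.

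The members, lists and tests were chosen with earlier results of these data known. The text names the 4 members, up to 4 called genes per list and comparison, the 3 probes most correlated with each member over at least 30 samples, and ranks 1 to 8 of the contrast. In all, 17 alternatives were planned, and leaving out slide 4, slide 12 or the third scan day was chosen after seeing the data. Sequences of 2 probes were not used here. Precision is limited by the number of arrays. A probe that met the likeness rule for MAPK8IP1 is not reported here.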

Additional observations from a re-analysis of the deposited data

Results flagged for a closer look

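In 39 groups of 4 to 10 samples, 2 held a sample far from the others, and chance flags about 1 in 20 groups. LBXCOR1 in caruncular endometrium was 0.23 in 1 cyclic cow, whose nearest neighbour in the group was 0.44. MAPK8IP1 in caruncular endometrium was -0.58 in 1 pregnant cow with a large embryo, and the nearest of the other cows with a large embryo was -0.03. Both samples were scanned on the third day. The pregnancy effect differed between the tissues by 1.00 for CB449833 and by 1.61 for MAPK8IP1, past the threshold in the main fit over all probes. With marked spots kept, with the first array alone or in the deposited matrix, 1 member was past it. The values of CB449833 and MAPK8IP1 are what the members were chosen by and support nothing further.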

How the results depend on the processing

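Scaling and array choices (no centring, first or repeat array alone, no filter) kept the sign of every member's value. Slide as a fixed block moved the pregnancy differences most, and it takes each tissue's pregnancy effect from 1 slide, slide 7 or slide 2. In intercaruncular endometrium it turned CB449833 to 0.40 and took LBXCOR1 to -0.053, in caruncular endometrium it gave MAPK8IP1 0.68 and NME7 -0.18, and the differences between the tissues became -0.077 (CB449833), 0.15 (LBXCOR1) and -0.14 (NME7). It could not be fitted for MAPK8IP1 in intercaruncular endometrium and was not run for the tissue difference. By normexp with loess the tissue differences of the effect were 0.72 for CB449833 and -0.71 for NME7. For MAPK8IP1 they were 0.87 in the deposited matrix, 0.89 with marked spots kept and 1.16 without slide 4, and the intercaruncular effect was -1.10 in the matrix and -1.04 without slide 4. With scan day as a block the difference between tissues was -0.11 for CB449833 and -0.14 for MAPK8IP1. The causes were not tested.

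The pairing by cow, fitted as a replicate block, raised the calls for the difference of the pregnancy effect from 3 to 150 (fixed) or 425 (random). That count was 11 with no filter, 6 with repeat arrays alone, 8 with scan day as a block, 0 with slide as a fixed or random block, 0 without slide 4, 0 without slide 12 and 87 without the third scan day. It was 2 with marked spots kept, with the first array alone and in the deposited matrix, with 1 member called each time, against 2 members in the main fit. The replicate block changed no call of the 4 members between tissues, where the scan-day block left 2 probes called in all.

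Some values changed sign for fertility. In caruncular endometrium they turned to -0.045 (CB449833) and -0.11 (MAPK8IP1) with slide as a fixed block, and to -0.094 (MAPK8IP1) without the third scan day. In intercaruncular endometrium MAPK8IP1 turned to -0.73 (matrix), -0.75 (marked spots kept), -0.21 (slide block) and -0.53 (without the third scan day). NME7 there turned to 0.0013 (matrix), 0.086 (without slide 12) and 0.0039 (without the third scan day). For embryo size, LBXCOR1 turned to -0.0022 (matrix) and -0.0075 (normexp) in caruncular and to 0.016 (normexp) and 0.19 (without slide 12) in intercaruncular endometrium, MAPK8IP1 to 0.19 (slide block), and NME7 to 0.00034 (matrix), 0.087 (slide fixed) and 0.043 (slide random). Leaving out each pregnant cow in turn gave LBXCOR1 -0.013 to 0.071 (caruncular) and -0.081 to 0.041 (intercaruncular), and NME7 -0.11 to 0.083 (intercaruncular).

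Intercaruncular calls for embryo size, 541 in all, ranged from 34 to 1881 when each cow was left out, and were 190 by Welch's test, 319 with no filter, 1086 and 876 with slide as a fixed and random block, 16 without slide 12 and 1881 without the third scan day. Intercaruncular fertility calls, 7 in all, were 0 by Welch's test, 4 with no filter, 0 and 3 with slide as a fixed and random block, 1 without slide 12 and 43 without the third scan day. Pregnancy calls fell to 58 in caruncular and 127 in intercaruncular endometrium with slide as a fixed block, and intercaruncular calls were 652 with slide as a random block and 703 without slide 12. Calls among pathway genes in caruncular endometrium, 4 in all, were 1 by normexp, 0 and 1 with slide as a fixed and random block, and 11 without the third scan day. Low signal limits NME7, and outlier-marked spots limit MAPK8IP1.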
